A study of Mus musculus with 6 samples.

Results

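The cytosolic heat shock chaperones described here are 10 genes, *Hspa1a*, *Hspa1b*, *Hspa8*, *Hsp90aa1*, *Hsp90ab1*, *Hspb1*, *Hsph1*, *Dnajb1*, *Cryab* and *Hsf1*, the last coding for the transcription factor that drives the others under stress. They were taken by symbol from a table of 22063 genes, and all 10 were among the 12862 genes with enough counts to be tested. RNA was sequenced from cardiac fibroblasts of *Tet3* f/f mice on a C57BL/6J background, in which loxP sites flank part of *Tet3*, an enzyme that oxidises 5-methylcytosine in DNA. The cells had received an adenovirus coding for GFP (labelled Control, here GFP) or one coding for Cre recombinase (labelled Tet3 knockout, here CRE), and both groups were treated with TGF-β, which turns fibroblasts into myofibroblasts. The paper's reagent list has EGFP in both viruses. Each group held 3 libraries, and untreated cells were not analysed here. Cre came from a virus given to a culture, so any cell that the virus missed would keep its *Tet3*, and the age and sex of the mice behind these cultures are not given in the sources used here. The comparison shows how the transcripts of TGF-β-treated fibroblasts differ between the Cre and the GFP virus. Cells without loxP sites given the Cre virus were not analysed here. Effects of Cre itself and of *Tet3* loss therefore cannot be told apart.

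Libraries held between 17002126 and 20343590 counts, and correlated at a Pearson r between 0.989 and 0.993 within groups and between 0.963 and 0.970 across groups, on log2 values across genes. *Tet3* was at 64.9, 54.4 and 52.0 CPM (the read count relative to library size, with libraries scaled by TMM so that the bulk of genes is level between them) in GFP and at 34.5, 35.9 and 33.6 CPM in CRE, 60.8% of the GFP mean. Its log2 fold change was -0.72 (SE 0.08, adjusted p = 5.36e-05 by edgeR's quasi-likelihood test with Benjamini-Hochberg adjustment). Fibroblast markers were abundant, at a summed 39448 to 40839 CPM in GFP and 21186 to 23277 CPM in CRE, with 9 of 10 lower, *Col1a1* being the highest. At the same adjusted p under 0.05, 25.7% of all tested genes were lower and 25.5% higher. Markers of other cells moved as well. Endothelial markers (*Cdh5* the highest) summed to between 405.5 and 452.6 CPM in GFP and between 195 and 226 CPM in CRE, with 9 of 10 lower. Smooth muscle and pericyte markers (*Smtn* the highest) summed to 175 to 194 and 143 to 164 CPM, with 5 of 10 lower and 1 higher. Macrophage markers (*Lyz2* the highest) summed to 34.0 to 36.5 and 20.8 to 25.1 CPM, with 2 of the 5 tested lower. Cardiomyocyte markers summed to at most 2.85 CPM in any library, *Nppb* was the 1 of 12 with enough counts to be tested and was higher in CRE, and *Myh6* and *Myl7* were at 0 in all libraries. The part of these shifts in the chaperone values was not tested.

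Heat shock chaperones hold unfolded proteins and help them to fold. HSP70 proteins bind short hydrophobic stretches in a cycle driven by ATP, which J-domain proteins such as DNAJB1 start and nucleotide exchange factors such as HSPH1 complete. HSP90 then finishes the folding of kinases, steroid receptors and other clients, and small heat shock proteins such as HSPB1 and αB-crystallin hold aggregation-prone proteins without using ATP. The HSP70 and HSP90 families pair constitutive members (*Hspa8*, *Hsp90ab1*) with inducible ones (*Hspa1a*, *Hspa1b*, *Hsp90aa1*). The inducible genes are transcribed when HSF1, released from chaperones by unfolded protein, trimerises and binds heat shock elements, inverted repeats of the unit GAA. αB-crystallin is best known in the heart for its role at the desmin filaments of muscle.

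The heat shock element gives the inducible genes a shared control sequence, so their promoters were read for it. RefSeq windows (build GRCm38.p6) that run from 250 bases before to 50 bases after the annotated start were given for 5 of the 10 genes, *Hspa1a*, *Hspa1b*, *Hspb1*, *Hsph1* and *Dnajb1*. Both strands were searched for GAANNTTC and for TTCNNGAA, each of which reads the same on either strand, and for the longer GAANNTTCNNGAA and its mirror TTCNNGAANNTTC, which contain both shorter ones. The stretches that carry the matches run 5′ to 3′ along the gene's own strand, with the matches in capitals.
*Hspa1a*, chr17:34972161-34972280, minus strand: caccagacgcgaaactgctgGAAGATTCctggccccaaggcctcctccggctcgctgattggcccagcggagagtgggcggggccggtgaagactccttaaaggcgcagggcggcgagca
*Hspb1*, chr5:135887785-135887854, plus strand: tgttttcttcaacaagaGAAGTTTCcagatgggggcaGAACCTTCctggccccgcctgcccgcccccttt
*Hsph1*, chr5:149636352-149636381, minus strand: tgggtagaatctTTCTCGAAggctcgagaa
*Hsph1*, chr5:149636287-149636308, minus strand: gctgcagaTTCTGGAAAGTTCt

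In *Hspa1a* the match began 104 bases before the start. The same 120 bases stood before *Hspa1b* at chr17:34959243-34959362, and the 250 bases before the 2 starts differed at 3 positions. *Hspb1* held GAANNTTC at 117 and 97 bases before its start. *Hsph1* has 2 RefSeq starts, 40 and 61 bases downstream of the start of the gene in GENCODE. Its TTCNNGAA began 33 bases before the first and 54 before the second, and the 13-letter TTCNNGAANNTTC began at base 37 or 16 after them, so that both matches lie inside the gene as GENCODE draws it. *Dnajb1* held none of these letters in its windows, which says only that they are not in those windows. Its 2 RefSeq starts lie at -18 (upstream) and 355 (downstream) bases from the GENCODE start. The window of the second lies wholly inside the gene. GAANNTTC was found in 4 of these 5 genes, and in 7.86% of all 32851 windows or 9.04% of the 27025 genes with a window. The 13-letter motif, in either orientation, was in 0.603% of all windows. Among the related chaperone genes of the 8 lists described after the 10 genes, 19 of 74 (25.7%) held either 8-letter motif, beside 17.0% of all genes with a window. These matches describe letters, not bound sites.

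Of the 10 genes, 8 were higher in CRE and 1, *Hspa8*, was lower at an adjusted p under 0.05 (edgeR, Benjamini-Hochberg over all tested genes), while *Hsp90ab1* was not called. Transcript levels differed widely between the groups: 51.2% of all tested genes were called, 25.5% higher and 25.7% lower. The median log2 fold change was 0.46 over the 10 genes and 0.01 over all tested genes. Among the genes called higher, it was 0.52 for the 8 chaperone genes and 0.40 for all 3277 such genes. In CPM, all 3 CRE libraries lay above all 3 GFP libraries for the 8 genes and below them for *Hspa8* and *Hsp90ab1*. Of all tested genes, 30.0% had groups apart in the first way and 29.6% in the second. With 3 libraries against 3 an exact two-sided permutation test cannot go below 0.1, and it gave 0.1 for each of the 10 genes. The study calls its replicates biological, and neither it nor the labels say whether the libraries of a group came from separate animals or separate cultures, so p-values measure the spread between these samples. In RNA from a whole culture, fewer cells of a type and less RNA per cell cannot be told apart.

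**Figure D1:**
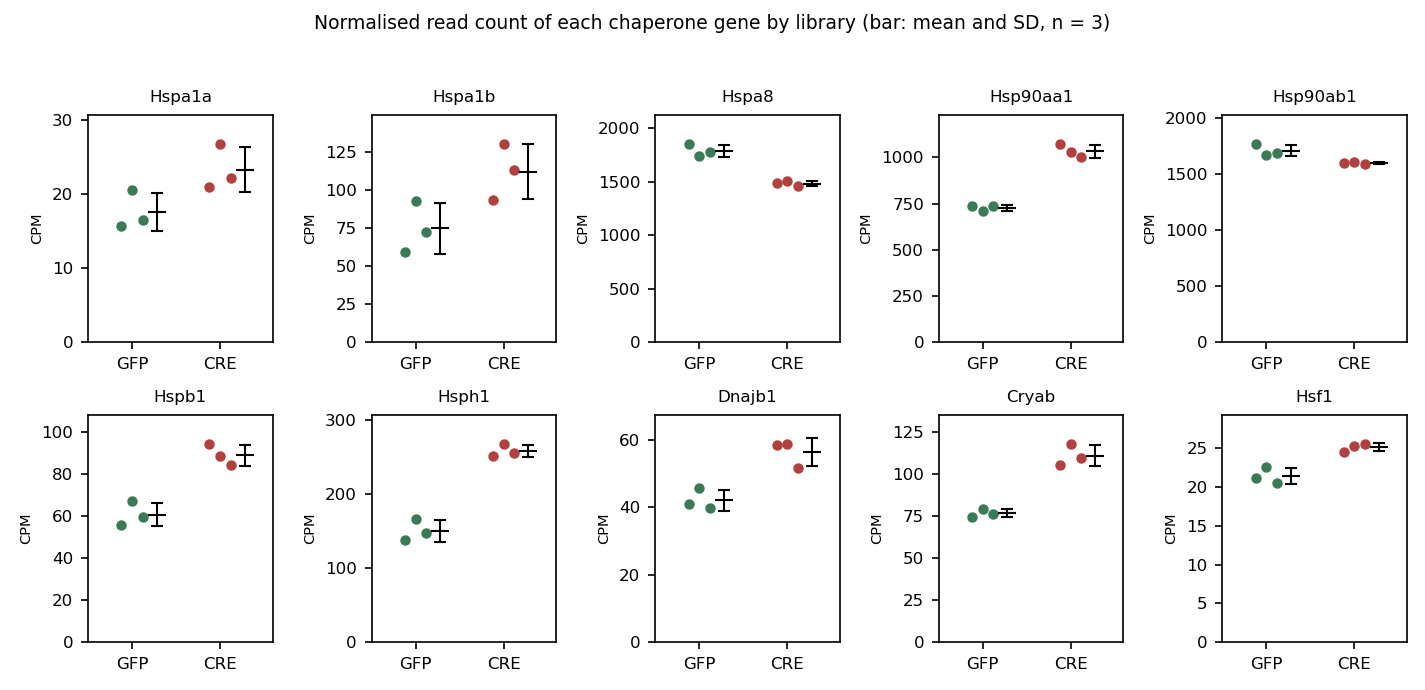
Normalised read count (CPM, y axes from 0) of each of the 10 chaperone genes in each of the 3 GFP and 3 CRE libraries, with the mean and SD beside the points. In 8 panels every CRE point lies above every GFP point, and in the panels of Hspa8 and Hsp90ab1 every CRE point lies below.

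Inducible HSP70 transcripts were higher in CRE. *Hspa1b* (ENSMUSG00000090877, GRCm38 chr17:34956436-34959238, minus strand) codes for one of 2 nearly identical inducible HSP70 proteins. It was at 59.6, 92.8 and 72.2 CPM in the 3 GFP libraries and at 93.5, 130.2 and 113 CPM in the 3 CRE libraries. The highest GFP library and the lowest CRE library almost met, and this gene had the widest spread within a group, relative to its mean, of the 10. The mean rose from 74.9 ± 16.8 to 112 ± 18.3 CPM (SD, n = 3), a difference of 0.58 on the log2 scale (SE 0.15, adjusted p = 0.00826, edgeR). *Hspa1a* (ENSMUSG00000091971, chr17:34969190-34972156, minus strand), the other copy, was at 15.7, 20.5 and 16.5 CPM in GFP and at 21.0, 26.7 and 22.1 CPM in CRE. Here too the second GFP library came close to the first CRE library. The mean went from 17.6 ± 2.58 to 23.3 ± 3.03 CPM (SD, n = 3), a difference of 0.40 on the log2 scale (SE 0.12, adjusted p = 0.0172, edgeR), a call that was lost without GFP replicate 3 (0.35, adjusted p = 0.0673) or CRE replicate 2 (0.30, adjusted p = 0.0679). GFP replicate 2 was the highest GFP library, and CRE replicate 2 the highest CRE library, for both copies.

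The 2 copies share sequence, which limits how far either can be read alone. Of the 100-base words of its longest coding transcript, 56.5% in *Hspa1a* and 49.9% in *Hspa1b* occurred in another gene, the partner copy among them. How reads that fit several genes were counted is not given in the sources used here. *Hspa1a* also shares 564 exonic bases with *Gm20481* on the opposite strand, a gene that the table does not list. With the counts of both copies summed to 1 feature, the log2 fold change was 0.55 (adjusted p = 0.00814, edgeR). The sum of the copies does not depend on how reads were split between them.

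*Hspa8* (ENSMUSG00000015656, chr9:40800984-40810087, plus strand) codes for the constitutive HSC70, the main HSP70 of unstressed cytosol. It moved the other way. It was at 1849, 1738 and 1772 CPM in GFP and at 1484, 1506 and 1455 CPM in CRE. The groups did not overlap, and the gap between them was wider than the range within either. The mean fell from 1786 ± 56.9 to 1482 ± 25.4 CPM (SD, n = 3), or to 83.0%, a difference of -0.27 on the log2 scale (SE 0.04, adjusted p = 0.000312, edgeR). The size of this fall depended on the scaling. With library size in place of TMM, under which the median of all tested genes moved up by 0.16 and 72.6% of calls were higher (49.8% with TMM), *Hspa8* was at -0.11 (adjusted p = 0.0401, edgeR), below that median, and it was not called by limma on log2(FPKM + 1) (-0.11, adjusted p = 0.0943). Of its 100-base words, 63.4% occurred in other genes, those with the most matches being the predicted genes *Gm15459*, *Gm26825* and *Gm8355*.

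Within a library, a ratio of 2 genes does not depend on the scaling between libraries. Counts of *Hspa1a* plus *Hspa1b* came to 4.08%, 6.52% and 5.01% of the *Hspa8* count in GFP and to 7.71%, 10.4% and 9.29% in CRE. The groups did not overlap, the mean log2 ratio was 0.83 higher in CRE (1.78-fold), and the exact permutation test gave 0.1, the smallest value it can give. Counted per length as FPKM, the 2 inducible copies made up 4.20% ± 0.953 of the HSP70 transcripts of these 3 genes in GFP and 7.17% ± 0.993 in CRE (SD, n = 3).

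Both co-chaperones of HSP70 rose. HSPH1 (HSP110) exchanges nucleotide on HSP70 and works with it to take protein aggregates apart, and *Hsph1* (ENSMUSG00000029657, chr5:149614287-149636376, minus strand) showed the largest log2 fold change of the 10 genes. It was at 138, 166 and 147 CPM in GFP and at 251, 268 and 256 CPM in CRE. The lowest CRE library was well above the highest GFP library. The mean rose from 150.5 ± 14.3 to 258 ± 8.37 CPM (SD, n = 3), a difference of 0.78 on the log2 scale (SE 0.07, adjusted p = 7.56e-06, edgeR). With TMM, *Hsph1* was also the only gene of the 10 beyond the study's own threshold, an unadjusted p under 0.05 with a fold over 1.5 or under 0.66, which 7.52% of tested genes passed upwards and 10.3% downwards. That count depended on the scaling. With library size alone (13.0% of tested genes upwards, 6.97% downwards) 5 of the 10 passed it upwards, *Hspa1b*, *Hspb1*, *Cryab* and *Hsp90aa1* beside *Hsph1*, and 0 downwards. The counts were also 5 and 0 with limma on log2(FPKM + 1) (6.63% and 4.04%) and on log2(FPKM + 0.1) (12.3% and 6.68%). DNAJB1 (HSP40) is the J-domain protein that loads substrates onto inducible HSP70. *Dnajb1* (ENSMUSG00000005483, chr8:83608193-83612653, plus strand) was at 40.8, 45.7 and 39.7 CPM in GFP and at 58.6, 58.6 and 51.5 CPM in CRE. The third CRE library was lower than the other two and still above all GFP libraries. Its mean rose from 42.1 ± 3.14 to 56.2 ± 4.11 CPM (SD, n = 3), a difference of 0.42 on the log2 scale (SE 0.07, adjusted p = 0.000785, edgeR).

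Set against *Hspa8*, both co-chaperones stood higher in CRE. The *Hsph1* count was 7.46%, 9.56% and 8.32% of the *Hspa8* count in GFP and 16.9%, 17.8% and 17.6% in CRE, a log2 ratio 1.05 higher (2.07-fold). This was the largest shift of the 4 ratios examined. The *Dnajb1* count was 2.21%, 2.63% and 2.24% of the *Hspa8* count in GFP and 3.95%, 3.89% and 3.54% in CRE, a log2 ratio 0.69 higher (1.61-fold). For both, all CRE libraries were above all GFP libraries, with an exact permutation p of 0.1 before and after adjustment over the 4 ratios.

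**Figure D2:**
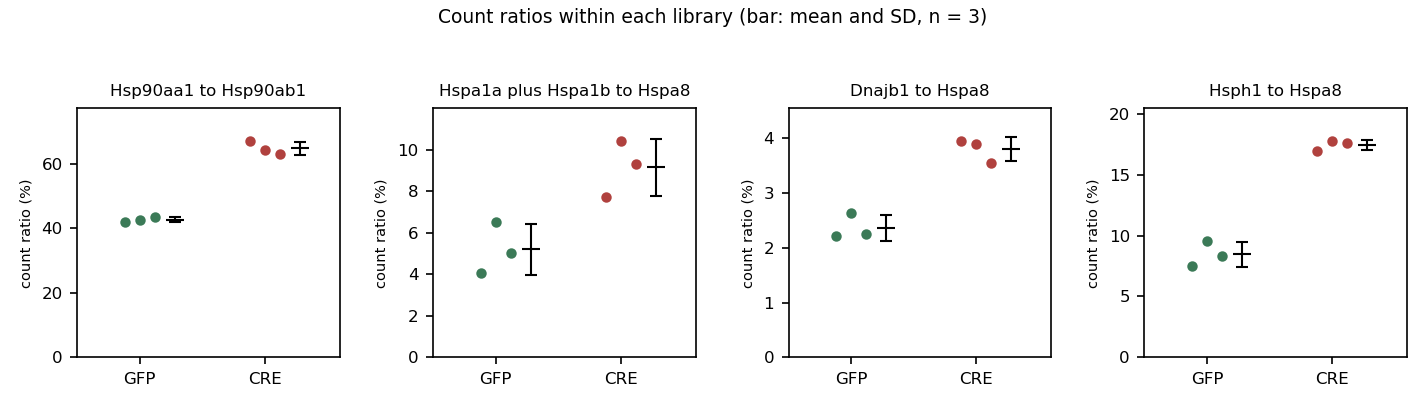
Ratio of counts within each library, in percent with y axes from 0, for 4 pairs of chaperone genes, with the mean and SD (n = 3) beside the points. Every CRE library lies above every GFP library in each panel, and the ratio of Hsph1 to Hspa8 goes from at most 9.56% in GFP to at least 16.9% in CRE.

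The 2 cytosolic HSP90 genes differed from each other. *Hsp90aa1* (ENSMUSG00000021270, chr12:110690605-110702728, minus strand), which codes for the stress-inducible HSP90α, was at 739.5, 709.5 and 735 CPM in GFP and at 1071, 1029 and 1001 CPM in CRE. Libraries of a group lay close together and the groups far apart. The mean rose from 728 ± 16.1 to 1034 ± 34.9 CPM (SD, n = 3), a difference of 0.51 on the log2 scale (SE 0.04, adjusted p = 7.61e-06, edgeR). *Hsp90ab1* (ENSMUSG00000023944, chr17:45567775-45573271, minus strand), which codes for the constitutive HSP90β, was at 1764, 1670.4 and 1689 CPM in GFP and at 1596, 1603 and 1591 CPM in CRE. All CRE libraries were below all GFP libraries, by a small margin. The means were 1708 ± 49.6 and 1597 ± 6.01 CPM (SD, n = 3), and the log2 fold change was -0.10 (95% interval -0.18 to -0.01, adjusted p = 0.0575, edgeR). The gene was called lower by limma-voom (adjusted p = 0.0442) and with the replicate number as a block (adjusted p = 0.0436, edgeR), both at -0.10. The sign of its change followed the scaling, being 0.07 with library size alone and 0.07 with limma on log2(FPKM + 1), both still below the median of all tested genes under that scaling.

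The ratio between the HSP90 genes is free of that choice. Counts of *Hsp90aa1* were 41.9%, 42.5% and 43.5% of those of *Hsp90ab1* in GFP and 67.1%, 64.2% and 62.9% in CRE. The spread within groups was narrow beside the gap between them, and the mean log2 ratio was 0.60 higher in CRE (1.52-fold, exact permutation p = 0.1, the smallest possible). By FPKM, *Hsp90aa1* made up 26.4% ± 0.491 of the HSP90 transcripts of these 2 genes in GFP and 35.2% ± 0.832 in CRE (SD, n = 3). Of the 100-base words of *Hsp90aa1*, 47.5% occurred in other genes, those with the most matches being *Gm12346*, *Gm5844* and *Gm5511*, and none of *Hsp90ab1* did.

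Both small heat shock protein genes rose to a like extent. HSPB1 (HSP25 in mice) binds unfolding proteins and actin, and *Hspb1* (ENSMUSG00000004951, chr5:135887919-135889563, plus strand) was at 55.8, 66.9 and 59.4 CPM in GFP and at 94.1, 88.3 and 84.3 CPM in CRE. The groups were apart by more than the range within either. The mean rose from 60.7 ± 5.66 to 88.9 ± 4.93 CPM (SD, n = 3), a difference of 0.55 on the log2 scale (SE 0.07, adjusted p = 0.000109, edgeR), and 42.7% of its 100-base words occurred in other genes, *Hsp25-ps1* and *Gm9817*. *Cryab* (ENSMUSG00000032060, chr9:50751325-50756636, plus strand) codes for αB-crystallin. It was at 74.9, 79.4 and 76.4 CPM in GFP and at 106, 118 and 109.9 CPM in CRE. The GFP libraries were nearly alike, and every CRE library was above them. The mean rose from 76.9 ± 2.30 to 111 ± 6.17 CPM (SD, n = 3), a difference of 0.53 on the log2 scale (SE 0.05, adjusted p = 2.03e-05, edgeR). *Cryab* shares 252 exonic bases, 17.0% of its own, with *Hspb2* on the opposite strand, and whether counting used the strand is not given in the sources used here. αB-crystallin is also abundant in heart muscle cells. The 12 cardiomyocyte markers summed to between 0.789 and 1.25 CPM in GFP and between 1.43 and 2.85 CPM in CRE. Of these, *Nppb* was higher, from 1 to 3 counts per library in GFP to 13 to 28 in CRE (log2 fold change 3.23, adjusted p = 0.000565, edgeR). None of the other markers had enough counts to be tested. *Tnnt2* and *Tnni3* were at means of 0.51 and 0.25 CPM in GFP and of 0.45 and 0.20 CPM in CRE. *Myh7* was at a mean of 0 CPM in GFP and 0.09 CPM in CRE. *Myh6* and *Myl7* were the 2 markers at 0 in all libraries. The part of these markers in the *Cryab* values was not tested.

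*Hsf1* (ENSMUSG00000022556, chr15:76477422-76501913, plus strand) codes for the factor that binds heat shock elements, and its activity is set mainly on the protein, which RNA does not show. It was at 21.1, 22.5 and 20.5 CPM in GFP and at 24.4, 25.3 and 25.4 CPM in CRE. The groups did not overlap, although the difference was the smallest of the 8 higher genes. The mean went from 21.4 ± 1.02 to 25.0 ± 0.532 CPM (SD, n = 3), a difference of 0.23 on the log2 scale (SE 0.07, adjusted p = 0.0151, edgeR). The call was lost with DESeq2 (0.23, adjusted p = 0.0616) and without GFP replicate 3 (0.20, adjusted p = 0.0630), and with library size alone the value was 0.39.

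**Figure D3:**
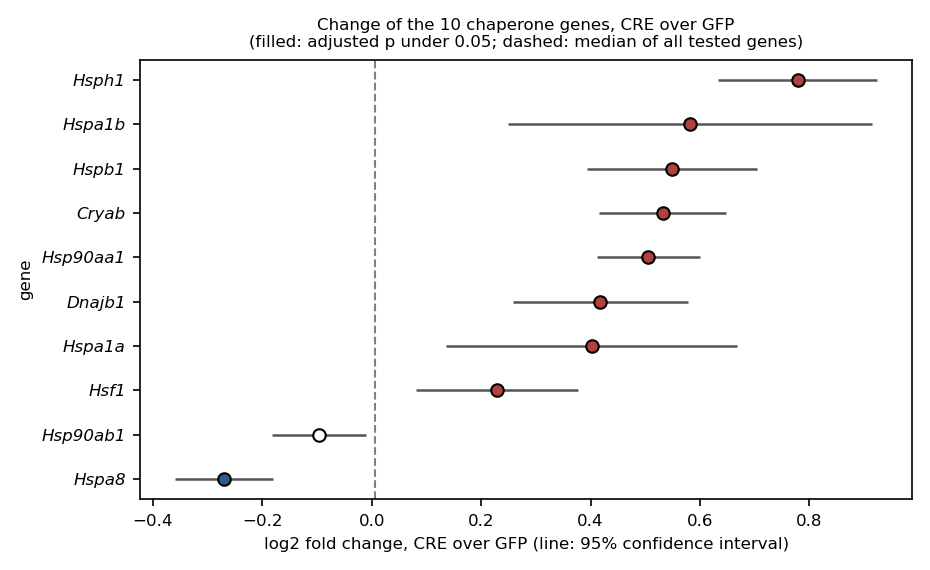
Log2 fold change of CRE over GFP for the 10 chaperone genes (x axis; points, with 95% confidence intervals as lines) by edgeR, filled where the adjusted p was under 0.05 and with the median of all tested genes dashed. Hsph1 is highest at 0.78, 8 genes lie to the right of the dashed line, Hsp90ab1 is open at -0.10 and Hspa8 lies lowest at -0.27.

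Per length, in FPKM, transcripts of the 10 genes spanned a wide range of levels. In GFP, *Hspa8* was the highest at 705 ± 21.0 FPKM and *Hsp90ab1* came next at 642 ± 18.4 FPKM (SD, n = 3). They were followed by *Hsp90aa1* at 230.5 ± 5.98, *Cryab* at 79.1 ± 2.56, *Hspb1* at 63.5 ± 5.96, *Hsph1* at 38.3 ± 3.74 and *Hspa1b* at 25.3 ± 5.67 FPKM. *Dnajb1* was at 13.3 ± 0.984, *Hsf1* at 9.80 ± 0.517 and *Hspa1a* at 5.59 ± 0.825 FPKM. No gene's GFP libraries overlapped in FPKM with those of the next gene in this order. The FPKM of *Hspa1a* and *Hspa1b* carry the same doubt about shared reads as their counts.

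In CRE, the first 2 places changed hands but could not be told apart. *Hsp90ab1* ran from 667 to 681 FPKM and *Hspa8* from 643 to 669 FPKM, so that their libraries overlapped. The order of the other 8 genes was as in GFP, again with no overlap between neighbours, from *Hsp90aa1* at 366 ± 11.5 FPKM down to *Hspa1a* at 8.29 ± 1.12 FPKM (SD, n = 3). *Hsph1* reached 75.7 ± 2.09 FPKM, and *Hspa1b* 42.4 ± 7.13 FPKM. FPKM are scaled by sequenced depth and not by TMM, so levels may be ranked within a group, and differences between groups are better read from CPM.

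The composition of the chaperone transcripts shifted accordingly. *Hspa8* and *Hsp90ab1* together made up 74.3% ± 1.16 of the summed FPKM of the 10 genes in GFP and 63.6% ± 0.385 in CRE (SD, n = 3). Summed over the 10 genes, the normalised read count was 4666 ± 80.5 CPM in GFP and 4787 ± 72.2 CPM in CRE (SD, n = 3), and the exact permutation p of this sum was 0.2. As a share of all counts without TMM, the 10 genes took 0.441% ± 0.00703 in GFP and 0.506% ± 0.00863 in CRE (SD, n = 3, exact permutation p = 0.1). The groups overlapped in the sum with TMM and were apart without it.

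Around the 10 genes, 84 other genes of the chaperone network were taken in 8 lists, of which 76 could be tested. Over these, 20 were higher in CRE, 25 were lower and 31 were not called, with a median log2 fold change of -0.03. Beside the backgrounds of 25.5% higher and 25.7% lower, that is a split near the one over all tested genes. The split followed the scaling, as it did over all genes: it was 37 higher and 7 lower with library size alone, and 34 higher and 7 or 6 lower in the 2 limma fits of FPKM. Over all 12862 tested genes, 5529 were higher and 2083 lower with library size alone. With limma on log2(FPKM + 1) these counts were 4976 and 1916. Without CRE replicate 2, 17 were higher and 16 lower. Up to 4 called genes per list are named, those of at least 10 CPM with the largest change and groups apart.

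**Figure D4:**
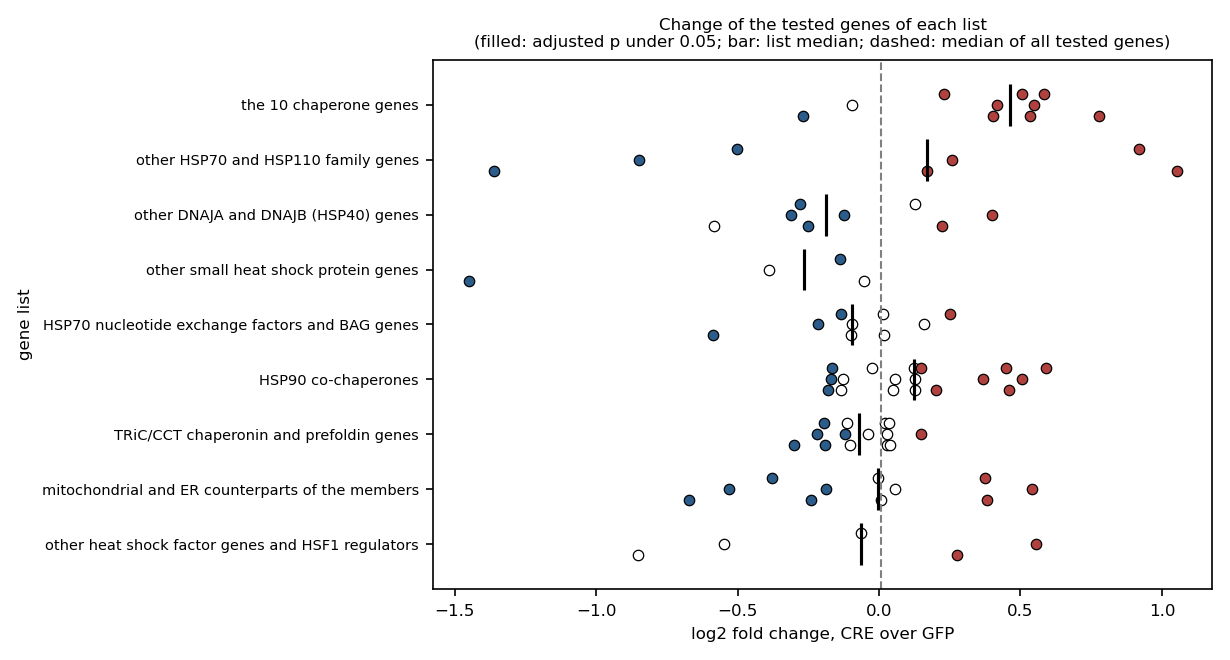
Log2 fold change of CRE over GFP (x axis, edgeR) of each tested gene (point) in the 10 chaperone genes and 8 lists of related genes (rows), filled where the adjusted p was under 0.05, with each list's median as a bar and the median of all tested genes dashed. The median is 0.46 for the 10 genes and between -0.26 and 0.17 for the 8 lists.

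The list of other HSP70 and HSP110 genes, which leaves out those counted with the organelles below, split. Of its 7 genes 4 were higher and 3 lower, with a median of 0.17. *Hspa4l*, a close relative of *Hsph1* in the HSP110 family, went from 160 ± 20.6 to 303 ± 35.4 CPM (SD, n = 3), a difference of 0.92 on the log2 scale (SE 0.10, adjusted p = 3.40e-05, edgeR). *Hspa12a*, a distant HSP70 relative, was at 1.05 (SE 0.08) and *Hspa14*, which works at the ribosome, at 0.26 (SE 0.06). *Hspa2* was lower at -0.50 (SE 0.12), a call lost in the limma fits of log2(FPKM + 1) (-0.27, adjusted p = 0.0513) and log2(FPKM + 0.1) (-0.33, adjusted p = 0.0505). *Hspa1l* at -0.85 and *Hspa12b* at -1.36 were lower as well, both under 10 CPM and named after their values were seen. In other fits of all libraries *Hspa1l* came as near to 0 as -0.21 and *Hspa12b* as -0.56. The *Hspa1l* call was lost in several fits, among them those without GFP replicate 2 or 3 or CRE replicate 2 or 3. A further list held DNAJA and DNAJB genes other than *Dnajb1* (called J-domain genes in the counts). It leaves out those counted with the organelles below. Of it, 2 of 8 tested were higher and 4 lower. The higher count was 1 with DESeq2 and without GFP replicate 1 or 3 or CRE replicate 2 or 3, and the lower count was 2 without GFP replicate 3 or CRE replicate 1 or 3 and 0 with library size alone or FPKM. *Dnaja1*, another J-domain partner of HSP70, rose from 261 to 344 CPM (log2 fold change 0.40, SE 0.04, adjusted p = 4.61e-05, edgeR). *Dnajb4*, *Dnajb5* and *Dnajb6* were lower by log2 values of -0.25, -0.31 and -0.28, and all 3 calls were lost with library size alone. That of *Dnajb5* was also lost without GFP replicate 1 (adjusted p = 0.0567), GFP replicate 3 (0.0729), CRE replicate 1 (0.0940) or CRE replicate 3 (0.0810).

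Of the 7 small heat shock protein genes other than *Hspb1* and *Cryab*, 4 were tested, 2 were lower and none was called higher; 1 was lower with library size alone or FPKM. *Hspb6* (HSP20), known for its part in muscle relaxation, fell to 5.49 CPM, or 36.5% of the GFP mean (log2 fold change -1.45, SE 0.13, adjusted p = 1.14e-05, edgeR). *Hspb8*, which works with BAG3 in selective autophagy, was at -0.14 (adjusted p = 0.0185, edgeR), a call that was lost with DESeq2 (adjusted p = 0.0541) and without GFP replicate 3, CRE replicate 1 or CRE replicate 2, and that turned to 0.02 with library size alone. *Bag3* itself, a nucleotide exchange factor of HSP70 and a known HSF1 target, was at 0.02 (adjusted p = 0.785, edgeR), and at 0.18 with library size alone (adjusted p = 0.0104), near the median of all tested genes under that scaling.

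Among the 9 HSP70 nucleotide exchange factors and BAG genes, 1 was higher, 3 were lower and 5 were not called, which turned to 3 higher and 1 lower with library size alone or FPKM. *Bag2*, an inhibitor of the HSP70 ubiquitin ligase CHIP, was lower at -0.59 (SE 0.07, adjusted p = 5.76e-05, edgeR), as were *Bag1* at -0.22 and *Bag6* at -0.13, and *Bag5* was higher at 0.25. The *Bag5* call was lost without GFP replicate 2 or CRE replicate 1, that of *Bag6* without CRE replicate 1 or CRE replicate 2, and with library size alone *Bag1* was not called and *Bag6* turned to 0.03.

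Of 18 HSP90 co-chaperones, 7 were higher and 3 lower, with a median of 0.12. *Stip1* (HOP), which hands clients from HSP70 to HSP90, rose from 226 to 308 CPM (log2 fold change 0.45, SE 0.04, adjusted p = 1.85e-05, edgeR). *Chordc1* rose by 0.46 (SE 0.05), *Ttc4* by 0.37 (SE 0.09) and *Fkbp5*, a co-chaperone of steroid receptors that glucocorticoids induce, by 0.59 (SE 0.10). The count depended on the libraries and the scaling, being 5 to 6 higher with 1 library left out, 13 higher and 0 lower with library size alone, and 11 higher and 0 lower with FPKM. The lower count was 5 without GFP replicate 2 and 1 without CRE replicate 2. The cytosolic chaperonin TRiC, which folds actin and tubulin, and its partner prefoldin had 1 gene higher, 5 lower and 8 not called of 14, which turned to 6 higher and 0 lower with library size alone or FPKM. The higher count was 0 without GFP replicate 3 or CRE replicate 1, and the lower count 3 without GFP replicate 3 or CRE replicate 2. *Tcp1* was at -0.20, *Cct2* at -0.19, *Pfdn2* at -0.22 and *Pfdn4* at -0.30, and none of these 4 was called with library size alone. The *Pfdn2* call was also lost without GFP replicate 3 (adjusted p = 0.0688) or CRE replicate 2 (0.0910), and with DESeq2 (0.0686).

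Counterparts of the chaperones in mitochondria and the endoplasmic reticulum (ER) moved in both directions, 3 of 11 being higher and 5 lower, or 6 higher and 3 lower with library size alone or FPKM. The mitochondrial HSP70 gene *Hspa9* fell from 668 to 419 CPM (log2 fold change -0.67, SE 0.06, adjusted p = 1.39e-05, edgeR), and the mitochondrial HSP90 gene *Trap1* rose by 0.38 (SE 0.05). The ER HSP90 gene *Hsp90b1* (GRP94) fell from 2278 to 1575 CPM (log2 fold change -0.53, SE 0.04, adjusted p = 2.49e-06, edgeR). Its cytosolic relative *Hsp90aa1* lay on the other side of 0 at 0.51. The ER HSP70 gene *Hspa5* (BiP), the usual marker of ER stress, was at 0.01 (adjusted p = 0.891, edgeR), and at 0.17 with library size alone (adjusted p = 0.00644), again near that median. *Dnajb9*, a J-domain partner of BiP, was higher at 0.54 (SE 0.05).

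Of the other heat shock factor genes and regulators of HSF1, 5 of 8 were tested, 2 were higher and none was lower. *Hsf2*, whose product can pair with HSF1 on heat shock elements, rose from 22.4 to 33.0 CPM (log2 fold change 0.56, SE 0.08, adjusted p = 0.000217, edgeR), above the 0.23 of *Hsf1*. *Hikeshi*, which carries HSP70 into the nucleus, rose by 0.28 (SE 0.08, adjusted p = 0.0115, edgeR).

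**Figure D5:**
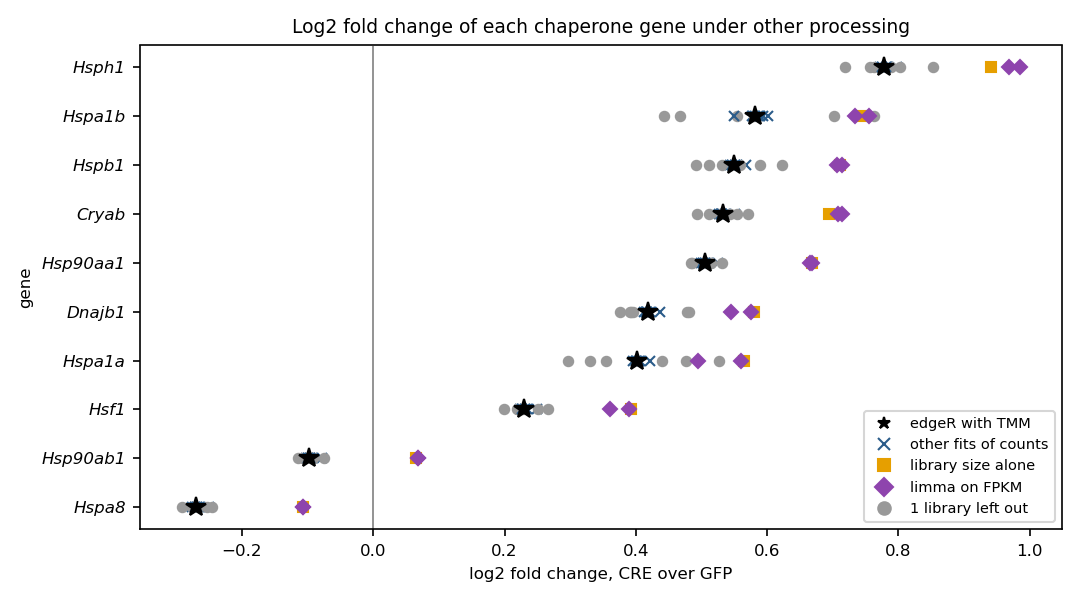
Log2 fold change of CRE over GFP (x axis) for each of the 10 chaperone genes under edgeR with TMM (stars), other fits of the counts (crosses), library size alone (squares), limma on FPKM (diamonds) and with 1 library left out (circles). Squares and diamonds lie to the right of the stars for all 10 genes, and Hsp90ab1 is the gene whose points fall on both sides of 0, from -0.12 to 0.07.

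The plot of the alternative fits shows how far each of the 10 genes moved with the processing. *Hsph1*, *Hspb1*, *Cryab*, *Hsp90aa1*, *Dnajb1* and *Hspa1b* were called higher in every fit with an adjusted p, with the highest adjusted p among them being 0.0355, for *Hspa1b* with 1 library left out. *Hspa1b* ranged most, from 0.44 to 0.76 with 1 library left out. *Hspa8*, *Hspa1a* and *Hsf1* each lost their call in some fit, and *Hsp90ab1* gained one in some.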

How the data were processed

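RNA-seq of 6 libraries was analysed, 3 GFP and 3 CRE, grouped by the sample titles. According to the methods, Trimmomatic and then HISAT2 (build GRCm38) were run on the reads. The authors obtained raw counts per gene with HTSeq-count and FPKM with Cufflinks, and deposited both per library. Tool versions and the strand setting of the counting are not given in the sources used here, and the labels and the methods name different RNA and library kits. The table's columns of group means, log2 fold changes, p-values and false discovery rates hold the authors' own comparison and were not used.

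Low counts were filtered with filterByExpr (min.count 10, min.total.count 15), libraries were scaled by TMM (factors 0.944 to 0.947 in GFP and 1.05 to 1.06 in CRE) and the groups were compared with edgeR 4.0.16 (R 4.3.3, quasi-likelihood, two-sided), with Benjamini-Hochberg adjustment over 12862 genes. CPM are the authors' counts scaled to the effective library size. Log2 ratios between genes used count + 0.5 and an exact two-sided permutation test. The alternatives were RLE, library size alone and upper-quartile scaling, other filters, DESeq2 1.42.0, limma-voom and limma 3.58.1 on log2(FPKM + 1) and log2(FPKM + 0.1), a block for the replicate number, leaving out each library, the copies *Hspa1a* and *Hspa1b* summed, and the study's threshold. Simulated counts with known changes, in few genes and balanced in direction, were used to check the fit. They cannot show how TMM holds in data where 51.2% of genes are called. Positions are from GENCODE M21 (GRCm38) and promoters from RefSeq. The 10 genes, the lists of related genes and the rule for naming genes (up to 4 per list, called, at least 10 CPM in a group, groups apart, by the largest change) were chosen with earlier results of these data known. No 2 libraries of a group agreed within sampling noise (chi-square over its degrees of freedom 3.94 to 11.7), so none was counted as a copy of another.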

Additional observations from a re-analysis of the deposited data

How the results depend on the processing

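Over the 10 chaperone genes, 150 of 161 other fits kept call and direction. With library size alone the median of all tested genes moved up by 0.16 (72.6% of calls higher), and with limma on FPKM by 0.13 (pseudocount 1, 72.2%) or 0.16 (pseudocount 0.1, 72.3%). *Hsp90ab1* reversed to 0.065 with library size and to 0.068 in both FPKM fits, and *Hspa8* at -0.11 was not called in either FPKM fit (adjusted p = 0.0943 and 0.0908 by limma), which left 0 lower. *Hspb8* reversed to 0.023 and 0.022, and *Bag6* to 0.029 and 0.025 (library size, FPKM). Over the 8 lists, 37 genes were higher and 7 lower with library size, and 34 higher and 7 or 6 lower with FPKM (pseudocount 1, 0.1). In these 3 fits, J-domain lower calls went to 0, other small heat shock lower to 1, exchange factors to 3 higher and 1 lower, TRiC and prefoldin to 6 higher and 0 lower, organelle counterparts to 6 higher and 3 lower, and HSP90 co-chaperones to 0 lower and 13 (library size) or 11 (FPKM) higher, while other HSP70 lower went to 1 with a pseudocount of 0.1. DESeq2 did not call *Hsf1* (0.23, adjusted p = 0.0616), and gave 1 J-domain gene higher, 1 other small heat shock gene lower, and 0 TRiC and prefoldin genes higher and 3 lower. limma-voom called *Hsp90ab1* lower (-0.10, adjusted p = 0.0442), making 2 lower. The study's threshold left 1 of the 10 higher and 0 lower with TMM, and, in fits chosen after seeing the data, 5 higher and 0 lower with library size or FPKM.

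Whether replicate numbers pair the samples is not settled. Deviations of same-numbered libraries correlated at 0.046, 0.18 and -0.018, the value of replicate 2 being the highest of any pair. Not every library correlated best with its own number. With the replicate block, 3260 genes were higher and 3373 lower, and *Hsp90ab1* was called (-0.10, adjusted p = 0.0436, edgeR), making 2 lower. The block moved adjusted p-values both ways. That of *Hspa1b* went to 2.59e-05 and that of *Hspa1a* to 0.00154, while that of *Hsf1* went up to 0.0218 (edgeR). The 4 ratios kept their direction in all 36 other fits.

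With 1 library left out, *Hspa1a* ranged from 0.30 to 0.53 and *Hsf1* from 0.20 to 0.27, both losing their call without GFP replicate 3 and *Hspa1a* also without CRE replicate 2, so that 6 to 8 of the 10 were higher. *Bag3* ranged from -0.018 to 0.053 and *Hspa5* from -0.015 to 0.047, with no call. *Bag3* was negative without GFP replicate 3 and CRE replicate 3 (-0.00485), *Hspa5* without CRE replicate 2. Over the 8 lists, 16 to 18 genes were higher and 16 to 25 lower (16 without CRE replicate 2). Ranges of list counts were 1 to 2 higher (1 without GFP replicates 1 and 3 and CRE replicates 2 and 3) and 2 to 3 lower (2 without GFP replicate 3 and CRE replicates 1 and 3) for J-domain genes, 1 to 3 lower (1 without GFP replicate 3 and CRE replicates 1 and 2) for other small heat shock genes, 0 to 1 higher for exchange factors (0 without GFP replicate 2 and CRE replicate 1), 1 to 5 lower for HSP90 co-chaperones (5 without GFP replicate 2, 1 without CRE replicate 2), 0 to 1 higher (0 without GFP replicate 3 and CRE replicate 1) and 3 to 5 lower (3 without GFP replicate 3 and CRE replicate 2) for TRiC and prefoldin, and 0 to 1 lower for heat shock factors and regulators (1 without GFP replicate 1). Leaving out a library also lowers the number of samples, and the cause of these changes was not tested. *Hspa1a* rested on 253 to 482 counts per library, the fewest of the 10 genes over all libraries.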

Other observations

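Neighbours of 2 of the chaperone genes were looked up after the values were seen. *Hspa1l*, an HSP70 gene best known from the testis, lies at chr17:34972703-34979285 (GRCm38, plus strand), and its start is 547 bases from that of *Hspa1a* on the other strand. It had 20, 27 and 29 counts in GFP and 19, 11 and 14 counts in CRE, so that the groups did not overlap in counts but came close. Its log2 fold change was -0.85 (SE 0.29, adjusted p = 0.0320, edgeR), beside 0.40 for *Hspa1a*. The call was lost with DESeq2 (adjusted p = 0.102), with library size alone (0.0637), with limma on log2(FPKM + 0.1) (0.0508), with the replicate block (0.0545), and without GFP replicate 2 or 3 or CRE replicate 2 or 3 (0.0844 to 0.112). *Gm10501* covers 71.9% of the exonic bases of *Hspa1l* on the opposite strand and is not listed in the table.

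*Hspb2*, a small heat shock protein gene of muscle, lies at chr9:50751078-50752354 (minus strand) and shares 252 exonic bases with *Cryab*. It had 77, 105 and 117 counts in GFP and 83, 84 and 71 counts in CRE, which is 4.79 to 6.08 CPM in GFP and 3.75 to 4.65 CPM in CRE. The groups overlapped in counts and did not in CPM. Its log2 fold change was -0.39 (adjusted p = 0.0556, edgeR), beside 0.53 for *Cryab*. With 1 library left out it ranged from -0.49 to -0.30. The adjusted p then ran from 0.0233, without GFP replicate 1, up to 0.178 (edgeR). In the other fits the value came as near to 0 as -0.21.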
